A study of Bos taurus with 14 samples.

Results

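The let-7 family with its relative miR-98 was followed in white cells of the peripheral blood (PWBC), taken at weaning from beef heifers. The 9 members were every mature bovine miRNA of the names bta-let-7a-5p, bta-let-7b, bta-let-7c, bta-let-7d, bta-let-7e, bta-let-7f, bta-let-7g, bta-let-7i and bta-miR-98, taken by name from the table of raw counts. They were 9 of the 1030 mature miRNA names listed, and all 9 were among the 341 miRNAs that passed the filter on low values. Where a name was listed on several precursors, only the listing of largest total entered the values below.

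Small RNA was sequenced from 14 Angus-Simmental crossbred heifers, with 1 library per heifer. The 7 fertile heifers (FH) later became pregnant to artificial insemination, and the 7 subfertile heifers (SFH) are labelled as not pregnant to it. Per the study's methods, bulls followed the insemination and the subfertile heifers carried no pregnancy from either. Blood was drawn from the jugular vein straight after weaning, so all heifers were sampled before breeding, and per the study's methods the groups were chosen to be alike in age and body weight. The samples hold all white cells of the blood together, so that fewer cells of a type and less of a miRNA per cell cannot be told apart. The number of each heifer is the one in its label, and no number occurs in both groups. FH libraries held 1754971 to 5468341 counts on mature miRNAs and SFH libraries 1831960 to 3958469, and the 3 deepest libraries were FH heifers 25, 27 and 29.

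Let-7 was among the earliest miRNAs described, as a gene that times development in the nematode, and it is kept across animals from worms to mammals. Its members share the seed, the stretch near the 5′ end with which a miRNA finds its targets, so they are expected to act on overlapping sets of mRNAs. Known targets include RAS genes, MYC, HMGA2 and LIN28, and LIN28 proteins in turn block the maturation of let-7 precursors. The family is abundant in differentiated cells, blood leukocytes included. The members differ from each other by very few bases outside the seed, so reads with an error or a trimmed end may sit on a similar member in the table, and all comparisons between members carry that uncertainty.

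In RefSeq's bovine annotation (ARS-UCD2.0, another assembly than the one used for the counts, so that no coordinates are given) 12 precursor genes produce the 9 mature members. MIRLET7A-1, MIRLET7F-1 and MIRLET7D lie next to each other. MIRLET7A-3 and MIRLET7B have the miRNA gene MIR2443 in their neighbourhood and overlap the gene LOC101903200, and MIRLET7B also has MIR3596 nearby. MIRLET7A-2 lies with MIR125B-1 and MIR100, MIRLET7C with MIR125B-2 and MIR99A, and MIRLET7E with MIR99B and MIR125A. MIRLET7F-2 and MIR98 lie together within HUWE1, a gene for a ubiquitin ligase. MIRLET7G overlaps WDR82 and has MIR135A-1 within 60 kb. MIRLET7I overlaps LOC132345292 and has no other miRNA gene within 60 kb.

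The family made up a large share of the small RNA of these cells. Over all 14 heifers, 22.2% of the counts on mature miRNAs fell on the 9 members, between 18.8% and 28.0% in single heifers. Let-7a-5p was the second most abundant miRNA of the table by total count (rank 2), and let-7e was the lowest member (rank 94). Let-7a-5p, let-7f and let-7g together held 74.5% to 83.6% of the family in each heifer. Mature miRNAs are of nearly equal length, so counts were not divided by length, but libraries of small RNA capture some sequences more readily than others, and this part in the order was not tested.

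The order of the members by level was let-7a-5p, let-7f, let-7g, let-7i, let-7d, miR-98, let-7b, let-7c and let-7e. In all 14 heifers let-7g exceeded let-7i, by 2.96 to 4.89 times, let-7b exceeded let-7c, by 4.35 to 7.27 times, and let-7c exceeded let-7e, by 2.46 to 4.07 times. The other neighbours changed places between heifers. Let-7a-5p was above let-7f in 11 of 14 heifers, let-7f above let-7g in 10, let-7i above let-7d in 11, let-7d above miR-98 in 11, and miR-98 above let-7b in 8. The members thus fell into a top tier of let-7a-5p, let-7f and let-7g, a middle tier of let-7i, let-7d, miR-98 and let-7b, and then let-7c and let-7e, with overlap within the upper tiers only.

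**Figure D1:**
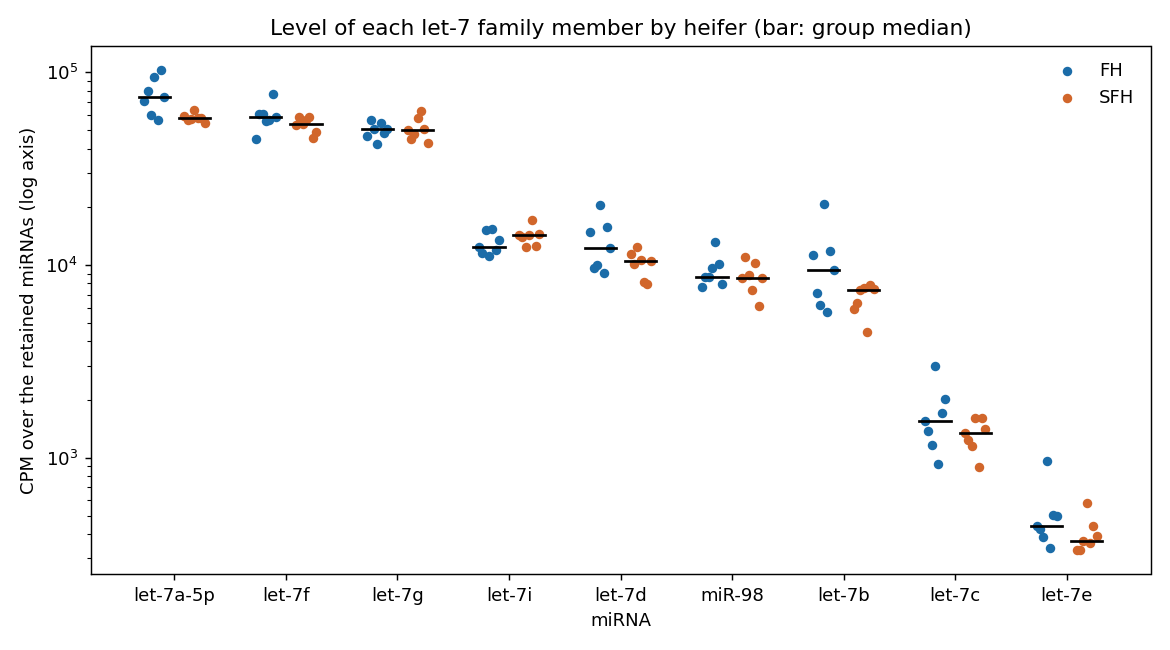
Level of each let-7 member in each heifer, as deposited CPM (counts scaled to a common library total) on a log axis, with a point per heifer and a bar at each group's median. Let-7a-5p ran from 56265 to 102516 CPM in FH and from 54088 to 63505 CPM in SFH, whereas let-7g and miR-98 covered much the same range in both groups.

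The first comparison asked whether the level of a member at weaning differed between FH and SFH heifers. Let-7a-5p, let-7b and let-7d were lower in SFH with p-values within 0.05 before adjustment, and let-7b alone also passed the fold change threshold used in the study (absolute log2 fold change of at least 0.5). No member passed after adjustment over all 341 miRNAs. DESeq2 called 2 of the 341 after adjustment, neither of them a member. The tests were those of edgeR's quasi-likelihood method, with SFH relative to FH, and adjusted p-values are those of the Benjamini-Hochberg method.

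Let-7a-5p, the most abundant member, is produced from 3 precursor genes. Its deposited CPM was 56265 at the lowest, 74031 at the median and 102516 at the highest in FH, and 54088, 57510 and 63505 in SFH. 5 FH heifers exceeded the whole SFH group, FH heifers 27 and 24 lay within the SFH range, and FH heifers 29 and 25 were the highest. The FH mean was 76725 ± 16968 CPM and the SFH mean 58006 ± 2923 CPM (SD, n = 7 each). The edgeR log2 fold change was −0.49 (SE 0.16, adjusted p = 0.415), just short of the fold change threshold. It passed the unadjusted p-value with every heifer left out in turn. Its size moved with the scaling, to −0.40 with library totals alone, −0.43 under upper quartile scaling and −0.51 with RLE size factors or DESeq2.

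Let-7b, whose precursor overlaps the same gene as a let-7a precursor, gave 5706, 9363 and 20742 CPM in FH as lowest, median and highest, and 4482, 7439 and 7813 CPM in SFH. FH heifer 25 stood far above the rest, 4 FH heifers were above every SFH heifer, and the other FH heifers overlapped with SFH. The log2 fold change was −0.71 (SE 0.25, adjusted p = 0.415 by edgeR). Without FH heifer 25 it was −0.44 (adjusted p = 0.800 by edgeR), and no member passed the thresholds.

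Let-7d, from the cluster of let-7a and let-7f, gave 9042, 12294 and 20455 CPM in FH and 7924, 10479.8 and 12353 CPM in SFH. FH heifers 25, 29 and 20 were above every SFH heifer, and the other 4 lay within the SFH range. The log2 fold change was −0.46 (SE 0.19, adjusted p = 0.704 by edgeR). It no longer passed the unadjusted p-value without FH heifer 25 (−0.32), FH heifer 29 (−0.37), SFH heifer 28 (−0.42) or SFH heifer 30 (−0.42). With all heifers kept, let-7d also did not pass under upper quartile scaling (−0.40) or with library totals alone (−0.37). Let-7f of the same cluster gave 44817, 58533 and 77293 CPM in FH against 45209.8, 53433 and 58460.1 CPM in SFH. Its log2 fold change was −0.23 (SE 0.15, adjusted p = 0.898 by edgeR), with FH heifer 29 the highest and FH heifer 20 the lowest of all 14, and it was −0.12 without FH heifer 29.

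The less abundant let-7c and let-7e, each from a precursor beside miR-99 and miR-125 genes, did not pass. Let-7c gave 931, 1550.4 and 2999.5 CPM in FH and 888, 1348 and 1612 CPM in SFH, with a log2 fold change of −0.42 (SE 0.23, adjusted p = 0.890 by edgeR). Let-7e gave 339.5, 439.9 and 955 CPM in FH and 331, 367 and 583 CPM in SFH, with a log2 fold change of −0.41 (SE 0.25, adjusted p = 0.890 by edgeR). Without FH heifer 25 the values were −0.21 for let-7c and −0.18 for let-7e. The groups overlapped for both, and FH heifer 25 was the only FH heifer above every SFH heifer for let-7e.

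Let-7g, let-7i and miR-98 had the smallest differences. Let-7g gave 42556, 50334 and 56408 CPM in FH and 42911, 49969 and 62537 CPM in SFH, and its log2 fold change of −0.04 (SE 0.13) became 0.02 under upper quartile scaling and 0.03 with library totals alone. Let-7i gave 11090.4, 12296 and 15404 CPM in FH and 12409.8, 14236 and 16976 CPM in SFH. 4 FH heifers were below every SFH heifer for let-7i in CPM, but the log2 fold change was 0.06 (SE 0.14) and was −0.01 when each precursor listing was fitted. MiR-98 gave 7702, 8693 and 13084 CPM in FH and 6137, 8585 and 10932 CPM in SFH, with a log2 fold change of −0.20 (SE 0.17) that was 0.06 without the 3 deepest libraries.

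Counted over the family, 8 of 9 members had a log2 fold change below 0, with a median of −0.41. The count was 7 under upper quartile scaling, with library totals or without SFH heifer 32, where let-7g turned, and without the 3 deepest libraries, where miR-98 turned. The median was −0.21 without FH heifer 25 and −0.14 without the 3 deepest libraries. Over all 341 miRNAs 44.9% were below 0, with a median of 0.06. Before adjustment, 3 of the 9 members were lower in SFH at the p-value threshold of 0.05, as were 3.23% of all 341 miRNAs. Past the p-value and fold change thresholds together was 1 of the 9 members, against a background of 3.81%. After adjustment 0 of the 9 members and 0% of all 341 miRNAs were called by edgeR (20 of the 341 passed 0.05 unadjusted), and the lowest adjusted p-value of any miRNA was 0.142. With DESeq2 2 members passed the thresholds, beside 4.69% of all 341 miRNAs. Without a filter on low CPM 2 of the 9 members passed as well, beside 20.5% of the 614 miRNAs then tested, so that this share is near its background. With heifers left out in turn, 4 members passed without FH heifer 27 (5.57% of all 341 miRNAs). 3 passed without FH heifer 24 (6.45%) or SFH heifer 26 (5.87%). 2 passed without FH heifer 20 (4.4%), 22 (4.69%) or 31 (4.4%) or SFH heifer 23 (4.99%), and 0 without FH heifer 25 (4.4%).

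How the let-7a-5p levels followed depth within FH was not tested. Of the 3 deepest libraries, FH heifers 29 and 25 held the highest levels of let-7a-5p and FH heifer 27, the deepest of all, the lowest of FH. Without these 3 libraries, a choice made after the data were seen, the log2 fold changes were −0.31 for let-7a-5p, −0.36 for let-7b and −0.22 for let-7d. Let-7a-5p still passed the unadjusted p-value by edgeR (adjusted p = 0.782), let-7b and let-7d did not (adjusted p = 0.967 for each), and 0 members passed both thresholds. With the log2 total as a covariate the values were −0.43 for let-7a-5p and −0.55 for let-7b, which passed the unadjusted p-value, and −0.38 for let-7d, which did not (edgeR, adjusted p = 0.548, adjusted p = 0.755 and adjusted p = 0.943). With the covariate let-7b remained past both thresholds.

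**Figure D2:**
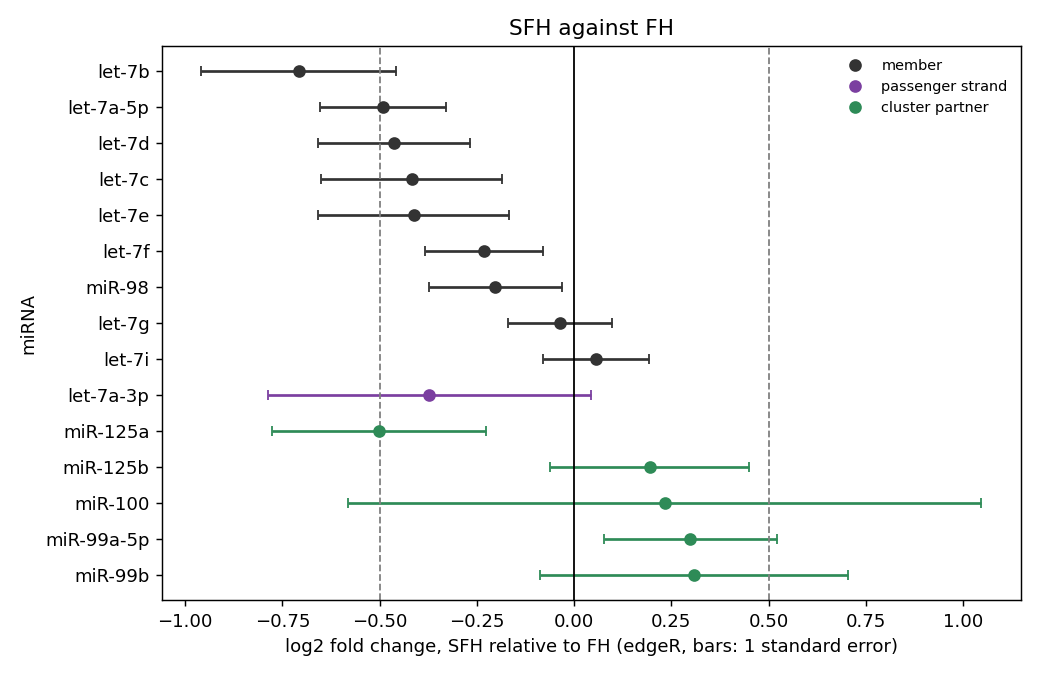
Log2 fold change of SFH relative to FH (horizontal axis, edgeR, all 14 heifers, bars of 1 standard error) for the 9 members, the passenger strand let-7a-3p and the 5 retained miRNAs of the miR-99, miR-100 and miR-125 families, with dashed lines at the threshold of 0.5 on either side. Let-7b lay beyond the line at −0.71, and let-7g and let-7i lay nearest to 0.

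The second comparison asked whether the make-up of the family differed. Shares of members within the family do not depend on how the libraries were scaled, but the share of the family in all counts rests on library totals. As a share of all mature miRNA counts, the family held 21.0% at the lowest, 22.8% at the median and 28.0% at the highest in FH, and 18.8%, 20.2% and 21.9% in SFH. The 4 FH heifers 29, 25, 22 and 31 were above every SFH heifer, and the other 3 lay within the SFH range. This total over the members is given as a description, with no test.

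Within the family, let-7a-5p took a larger share in FH and let-7i a larger share in SFH. Let-7a-5p made up 26.6% of the family at the lowest, 33.6% at the median and 36.7% at the highest in FH, and 26.2%, 28.7% and 30.4% in SFH. All FH heifers except 27 and 24 exceeded the highest SFH heifer. The means were 32.5% ± 3.87 for FH and 28.5% ± 1.29 for SFH (SD, n = 7 each), a difference of −4.02 percentage points (exact two-sided permutation test, p = 0.0251).

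Let-7i, from a gene apart from the clusters, made up 4.24%, 5.86% and 7.28% in FH and 6.17%, 6.93% and 7.73% in SFH. 5 FH heifers were below every SFH heifer, and FH heifers 27 and 24 were again within the SFH range. The mean share of let-7i was 5.66% ± 1.25 in FH and 6.95% ± 0.590 in SFH, a difference of 1.29 percentage points (exact two-sided permutation test, p = 0.0326). Let-7g made up 21.6% ± 3.51 in FH and 24.9% ± 2.28 in SFH, a difference of 3.32 points that missed the threshold (exact two-sided permutation test, p = 0.0606), and FH heifers 25 and 29, at 16.5% and 17.2%, had the lowest let-7g shares of all.

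The other members had differences between −1.02 percentage points (let-7b) and 0.901 (let-7f) and exact p-values of 0.217 or more. So 2 of 9 shares passed an unadjusted p-value of 0.05 over 9 tests, and shares that sum to a whole are not independent of each other. The count was 0 without FH heifer 25 and 0 without FH heifer 29. It was 1 without SFH heifer 28, and it was 3 without FH heifer 27 or SFH heifer 21. Without the 3 deepest libraries, the differences were −3.52 points for let-7a-5p (exact p = 0.0182) and 1.00 for let-7i (exact p = 0.0545).

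**Figure D3:**
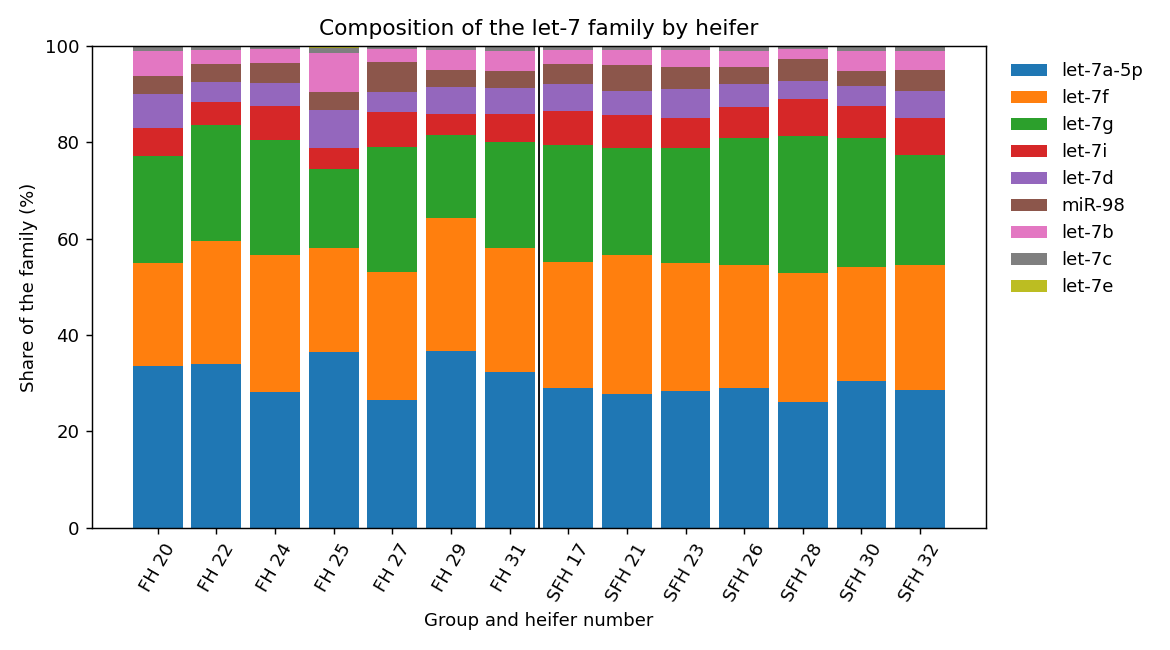
Share of each member in the counts of the family (percent, bars that sum to the whole) in each heifer, FH and SFH apart. Let-7a-5p, let-7f and let-7g filled 74.5% to 83.6% of each bar, and let-7a-5p ranged from 26.2% to 36.7%.

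The third comparison used ratios between members, on the log2 scale of the counts in each heifer. Ratios of let-7a-5p to members from its own clusters (let-7b, let-7d, let-7f) were compared with its ratios to let-7g and let-7i. The genes of let-7g and let-7i are not next to another let-7 precursor. The ratio of let-7f to miR-98, which neighbour each other, was added. These 6 pairs were chosen with earlier results known.

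The ratio of let-7a-5p to let-7g in single heifers was 0.05 at the lowest, 0.56 at the median and 1.14 at the highest in FH and −0.12, 0.25 and 0.33 in SFH, all on the log2 scale. 5 FH heifers were above every SFH heifer, while FH heifers 27 and 24 were not, and the SFH heifers had a mean of 0.20 ± 0.16 against 0.60 ± 0.40 in FH (SD, n = 7 each). The difference was −0.40 (exact two-sided permutation test, p = 0.0262).

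The ratio of let-7a-5p to let-7i was 1.87, 2.52 and 3.11 in FH and 1.76, 2.05 and 2.20 in SFH on the same scale, again with 5 FH heifers above every SFH heifer. The difference was −0.50 (exact two-sided permutation test, p = 0.0268). Within its own clusters the difference in log2 ratio was −0.24 to let-7f (exact p = 0.0728), −0.04 to let-7d (exact p = 0.765) and 0.14 to let-7b (exact p = 0.533), the last of these −0.002 without FH heifer 25. For let-7f to miR-98 it was −0.02 (exact p = 0.930), and 0.03 without FH heifer 29.

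Thus 2 of the 6 ratios passed an unadjusted p-value of 0.05, and 7 FH against 7 SFH heifers cannot give less than 0.000583. Without the 3 deepest libraries both kept their direction, at −0.28 for let-7g (exact p = 0.0242) and −0.40 for let-7i (exact p = 0.0273). The number of ratios passing was 0 without SFH heifer 28, 1 without FH heifer 25, FH heifer 29 or SFH heifer 26, and 2 or 3 without any other heifer. The ratio of let-7a-5p to each of the 340 other retained miRNAs was lower in SFH with an exact p-value of at most 0.05 for 21.5% of them, with a median difference of −0.56 over all 340, and for 2 of the 8 other members. The share among the members is near that background.

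**Figure D4:**
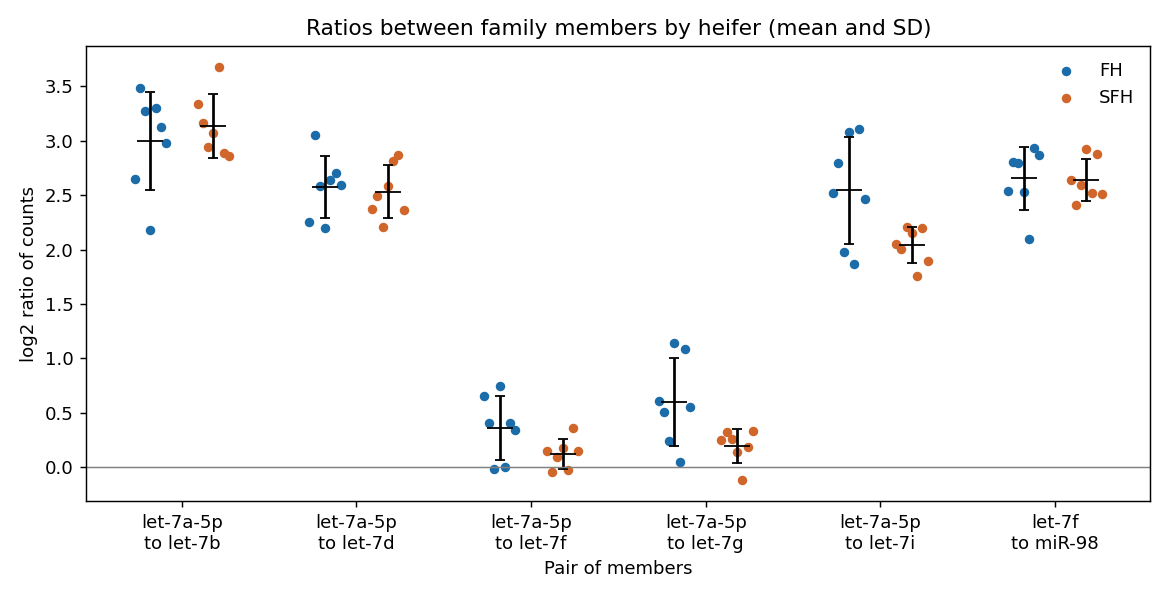
Log2 ratio of member pairs in each heifer, FH and SFH apart, with a point per heifer, a line at each group mean and bars of 1 SD. In the pairs of let-7a-5p with let-7g and with let-7i, 5 of 7 FH points lie higher than all SFH points.

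The spread of the heifers within a group was then compared. This comparison was chosen after earlier results of these data gave a wider range of let-7a-5p in FH, so its p-value for let-7a-5p is not independent evidence. On log2(TMM-normalized CPM + 0.5) FH heifers had an SD of 0.40 for let-7a-5p, 0.69 for let-7b and 0.49 for let-7d, against 0.11, 0.29 and 0.21 among SFH heifers. Let-7g was the exception among the 9 members, at 0.16 in FH and 0.23 in SFH. The mean distance from the own group's median differed with exact two-sided permutation p-values of 0.0589 for let-7a-5p, 0.0577 for let-7b and 0.0600 for let-7d.

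In the mean distance from the own group's median, 8 of 9 members were wider in FH, as were 63.0% of all 341 miRNAs, although for miR-98 the direction turned in deposited CPM. None of the 9 members passed a p-value of 0.05, 1.76% of the 341 passed with a wider FH, and no adjusted p-value was below 1 (exact permutation, 7 of 341 unadjusted in either direction). With distances taken from the mean in place of the median 3 members passed, and with deposited CPM 1 did. With heifers left out in turn, 3 passed without FH heifer 31, 2 without FH heifer 20 or 22, and 1 without FH heifer 24, FH heifer 27 or SFH heifer 28. The share over all 341 miRNAs under these alternatives is not given, so these counts have no background to be read against.

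Whether the members moved together across heifers was asked within each group apart. Within FH, 4 of the 8 other members correlated with let-7a-5p at an exact permutation p-value of at most 0.05, against 3.24% of the 340 other retained miRNAs. The values of Pearson's r were 0.81 for let-7d, 0.79 for let-7b, 0.76 for let-7c and 0.76 for let-7e (exact permutation p between 0.0248 and 0.0454, adjusted p = 0.553 over all 340 for each). Spearman's rho was 0.57 for let-7d (exact p = 0.200), 0.82 for let-7b (exact p = 0.0341), and 0.86 for let-7c and for let-7e (exact p = 0.0238). Once the 2 heifers most distant from the let-7a-5p median were left out, r was 0.29 for let-7d, 0.55 for let-7b, 0.70 for let-7c and 0.73 for let-7e. The relation with let-7d was thus weak without those heifers. Leaving them out also narrows the range of let-7a-5p, which by itself can lower r.

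The number passing within FH was 0 without FH heifer 24, 1 without FH heifer 27 or FH heifer 31, 2 without FH heifer 20 or FH heifer 22, 3 without FH heifer 25 and 4 without FH heifer 29. Within SFH, 1 of the 8 passed, against 4.12% of the 340. This was let-7g (r = 0.79, exact permutation p = 0.0345, adjusted p = 0.691, rho = 0.79, exact p = 0.0480, r = 0.57 without the 2 farthest heifers), and 0 passed on deposited CPM or when SFH heifer 17, 21, 23, 26 or 30 was left out. The shares over the 340 hold for all heifers of a group. With a heifer left out or on deposited CPM no such share is given, so those counts have no background. A difference between the groups in these correlations was not tested.

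Over the 36 pairs of members the median r was 0.30 within FH and 0.07 within SFH, beside 0.01 and −0.004 over all 57970 pairs of retained miRNAs. Within FH 10 of the 36 were positive with an exact p-value of at most 0.05, against 3.56% of all pairs, and within SFH 2 of the 36 were, against 3.84%. The pairs share the scale of each library, so that no pair is independent of the others. After adjustment over all pairs 0 passed in either group (exact permutation by pairings, smallest adjusted p = 0.605 in FH and 0.548 in SFH).

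The closest pairs in FH joined let-7b, let-7c, let-7d and let-7e. Let-7b and let-7d had r = 0.98 (exact permutation p = 0.000992, rho = 0.89 with exact p = 0.0123, r = 0.95 without the 2 heifers farthest from the median). Let-7c and let-7e had r = 0.95 (exact permutation p = 0.000198, rho = 1.00 with exact p = 0.000397, r = 0.92 without those 2), although their precursors lie in different clusters. In SFH let-7b and let-7c were again positive, with r = 0.82 (exact permutation p = 0.0254, rho = 0.75 with exact p = 0.0663, and 0.72 without the 2 farthest), and let-7c and miR-98 ran opposite to each other, with r = −0.75 (exact permutation p = 0.0454, rho = −0.89 with exact p = 0.0123, and −0.47 without the 2 farthest).

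**Figure D5:**
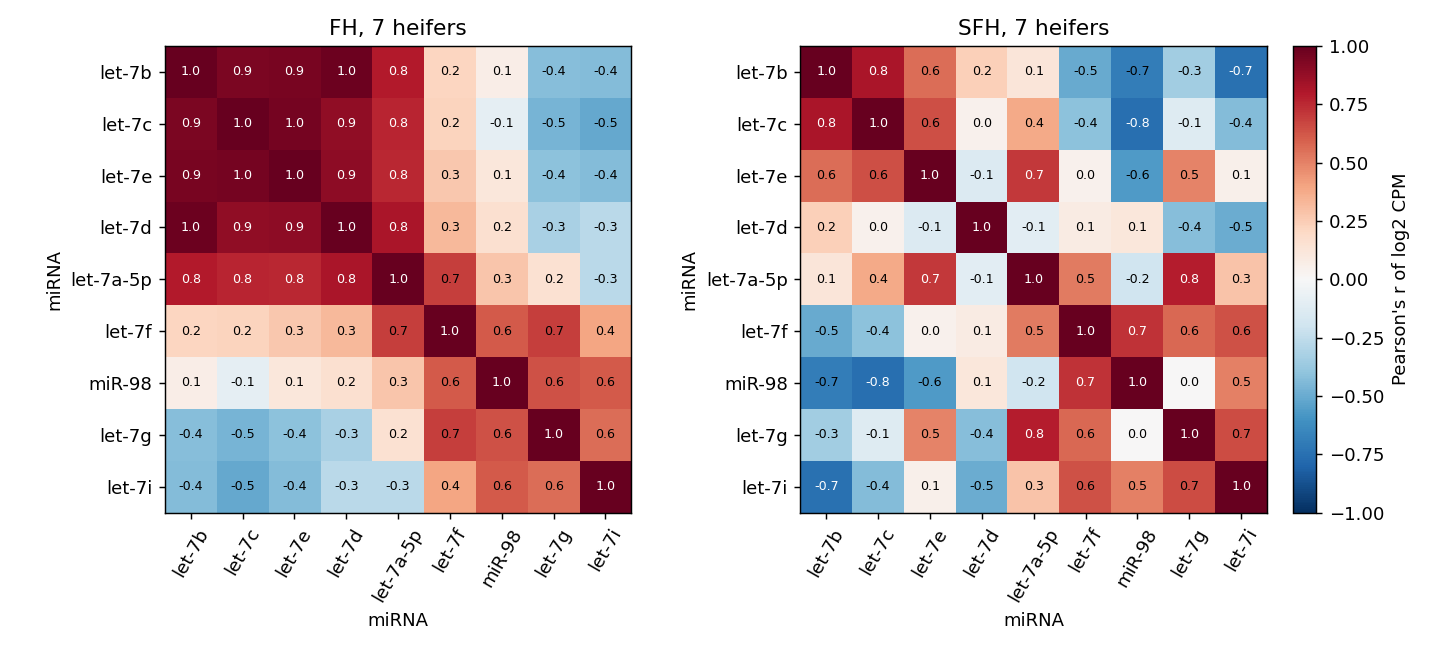
Pearson's r between each pair of members on log2(TMM-normalized CPM + 0.5), within the 7 FH heifers and within the 7 SFH heifers, on a colour scale from −1 to 1. Off the diagonal, the block of let-7b, let-7c, let-7d and let-7e in FH holds the highest values, up to 0.98.

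Listings of a mature miRNA on different precursors held nearly the same counts. Let-7a-5p was listed on 3 precursors with 99.5% to 100% of the count of its highest listing, and let-7f on 2, the lower at 95.4%. Summed over listings the family would have held 31.4% of the mature counts in FH and 26.9% in SFH, in which the same reads enter more than once.

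Let-7a-3p, the passenger strand of a let-7a precursor and the only other let-7 strand named, was far rarer than let-7a-5p. The ratio of let-7a-5p to let-7a-3p was 216, 667 and 2746 in FH as lowest, median and highest, and 326, 564 and 1044 in SFH. The groups overlapped, and the difference was −0.32 on the log2 scale (exact two-sided permutation test, p = 0.552). Let-7a-3p itself had a log2 fold change of −0.37 (SE 0.41, adjusted p = 0.947 by edgeR), which turned to 0.04 with limma-voom and to 0.10 without FH heifer 22, the highest at 370.0 CPM.

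Of 6 miRNAs of the miR-99, miR-100 and miR-125 families, which are encoded next to let-7 precursors, 5 were retained and none passed an unadjusted p-value of 0.05 (edgeR). 4 of the 5 had a log2 fold change above 0 and their median was 0.23. Over all 341 miRNAs 44.9% were below 0, with a median of 0.06. Let-7a-5p, let-7c and let-7e, each with a precursor in those clusters, were below 0. Let-7a-5p also has the precursors MIRLET7A-1 and MIRLET7A-3 outside them. A difference between these neighbours and the members was not tested. MiR-125a, the neighbour of let-7e, was the one of the 5 below 0, at −0.50 (SE 0.28, adjusted p = 0.890 by edgeR). MiR-99a-5p, the neighbour of let-7c, was at 0.30 (SE 0.22) and miR-99b, the other neighbour of let-7e, at 0.31 (SE 0.40), each with an adjusted p = 0.947 by edgeR.

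Marker miRNAs of the blood cells present in such samples were measured beside the members, and none passed an unadjusted p-value of 0.05 between the groups (edgeR). The cells carried the miRNAs expected of white blood cells, with miR-150, a miRNA of mature lymphocytes, at rank 3 and miR-223, a miRNA of myeloid cells, at rank 13. MiR-223 was 11921 to 22780.0 CPM in FH and 15335 to 26639.8 in SFH, and the summed lymphocyte markers were 63150 to 118627 and 58464 to 132350 CPM. Singly, their log2 fold changes were 0.33 (SE 0.19) for miR-181a, −0.14 (SE 0.16) for miR-342 and −0.08 (SE 0.21) for miR-150. Of the 3 erythroid markers, miR-144 had 0 counts in all heifers, and miR-451 and miR-486 summed to 1574 to 3713 CPM in FH and 1463 to 9236 in SFH. The log2 fold change was 0.72 (SE 0.39) for miR-451 and −0.05 (SE 0.35) for miR-486.

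The platelet and endothelial markers, both strands of miR-126, summed to 22.4 to 68.3 CPM in FH and 4.52 to 47.0 in SFH, with means of 43.8 ± 17.0 and 32.0 ± 13.8 CPM (SD, n = 7 each) and 4 FH heifers above every SFH heifer. For miR-126-3p alone the log2 fold change was −0.35 (SE 0.55), and for miR-126-5p −1.47 (SE 1.24), a strand that had 0 to 43 counts per heifer. The pan-leukocyte markers, both strands of miR-142, summed to 5237 to 17756 CPM in FH and 8001 to 20780.5 in SFH, with means of 10541 ± 3729 and 14284 ± 5016 CPM. MiR-142-5p, which made up nearly all of the sum, had a log2 fold change of 0.39 (SE 0.24), and miR-142-3p one of −0.15 (SE 0.37). The part of the platelet and leukocyte markers in the let-7 differences was not tested.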

How the data were processed

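Small RNA-Seq of PWBC from 14 heifers (7 FH, 7 SFH) was analysed from the deposited tables. Per the study's methods, the authors trimmed the reads with Cutadapt and counted them with miRDeep2 against ARS-UCD1.2 and the bovine miRNAs of miRBase 22.1. The authors deposited raw counts per mature miRNA and precursor, and CPM, which equal those counts divided by the total over the 341 retained miRNAs of a heifer and scaled to a common total. No column was left out (0).

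For each mature name the entry of largest total entered the tests. The filter was a CPM of 1 or more in 7 or more heifers. The tests used edgeR 4.0.16 in R 4.3.3 (TMM, quasi-likelihood, group as the only term), with Benjamini-Hochberg adjustment over all 341. Exact two-sided permutation tests of shares, ratios and spreads ran over 3432 arrangements of the heifers, and correlations over 5040 pairings within a group, on log2(TMM-normalized CPM + 0.5) for spreads and correlations. DESeq2 1.42.0 and limma 3.58.1 served as alternatives. Other steps ran in Python 3.11.15 with scipy 1.17.1, numpy 2.4.6 and pandas 2.3.3. The scripts were tested on simulated data. Totals were 1754971 to 5468341 counts per heifer, and PCR reads carry no molecular identifiers in the sources used here.

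The miRNAs named are the members, other let-7 strands, neighbours of their precursors, marker miRNAs and the 3 miRNAs most alike to let-7a-5p. Members, pairs, lists and the comparison of spread were chosen with earlier results of these data known. Alternatives were other scaling, tools, filters, scales, coefficients, all precursor listings, the log2 total as covariate and leaving out heifers.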

Additional observations from a re-analysis of the deposited data

Results flagged for a closer look

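The levels and family shares of the members, the 6 ratios of member pairs and the family total were searched for a heifer that stood apart from its own group, over 50 sets of 7 values, by the gap to the nearest heifer relative to the whole range. 4 of the 50 sets were flagged, where chance alone gives about 1 in 20 sets, so the number is not far from chance. The sets are not independent, since the level and the family share of a member come from the same counts. All 4 lay in FH. FH heifer 25 had 20742 CPM of let-7b, with the other FH heifers at 5706 to 11751, and 955 CPM of let-7e, with the others at 339.5 to 503. The share of let-7e in the family was 0.370% in FH heifer 25 and 0.161% to 0.219% in the other FH heifers. The share of miR-98 in the family was 6.19% in FH heifer 27 and 3.50% to 4.09% in the other FH heifers. FH heifers 25 and 27 were also among the 3 deepest libraries, and the part of depth in these values was not tested.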

How the results depend on the processing

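The number of members past the p-value and fold change thresholds was 1 (3.81% of all tested). It became 2 with RLE size factors (4.4%), DESeq2 (4.69%) or no CPM filter (20.5%). It was 3 with CPM required in all 14 heifers (7.39%) and 4 with every precursor listing (4.61%). It was 0 without the 3 deepest libraries (3.81%), and 0 to 4 with each heifer left out (3.23% to 6.45%). The causes were not tested. The family share was 31.4% in FH and 26.9% in SFH over summed listings. Shares passing numbered 1 without the 3 deepest libraries, and 0 to 3 with each heifer left out, as did ratios and spreads. Spreads passing numbered 1 on deposited CPM and 3 from the mean. Members correlated with let-7a-5p numbered 0 to 4 in FH and 0 to 1 in SFH with each heifer left out, and 0 in SFH on deposited CPM. For spreads and correlations under these alternatives, no share over all miRNAs is given beside the counts.

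Directions turned as follows. The log2 fold change of let-7g was 0.017 under upper quartile and 0.031 with library totals, let-7i −0.0088 over every listing, miR-98 0.057 without the 3 deepest libraries, and let-7a-3p 0.04 with limma-voom and 0.10 without FH heifer 22. The spread difference of miR-98 was 0.011 on deposited CPM. With each heifer left out, the log2 fold change of let-7g ran from −0.10 to 0.00099, the share differences of let-7c from −0.099 to 0.021, let-7e from −0.029 to 0.0085 and miR-98 from −0.0061 to 0.54 points, the log2 ratios of let-7a-5p to let-7b from −0.0016 to 0.22, to let-7d from −0.11 to 0.036 and let-7f to miR-98 from −0.11 to 0.031, and the spread differences of miR-98 from −0.10 to 0.0068 and let-7f from −0.074 to 0.044.

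No paired analysis was possible because FH and SFH share no heifer number. Each member had at least 645 counts in every heifer, and let-7a-3p had 111 to 801.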

Other observations

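The 3 retained miRNAs outside the family whose deviations from the group mean were most like those of let-7a-5p over the 14 heifers were miR-191 (r = 0.74), miR-19a (r = 0.71) and miR-30b-3p (r = 0.70). These were chosen for their likeness, so the values are a description. MiR-191 had 46702 ± 7126 CPM in FH and 41073 ± 5307 in SFH (SD, n = 7 each), while miR-19a and miR-30b-3p were rare, with medians of 16.5 and 38.9 CPM in FH and 26.7 and 54.3 in SFH. Within FH, r with let-7a-5p was 0.84 for miR-191, 0.83 for miR-19a and 0.69 for miR-30b-3p. Once the 2 heifers most distant from the let-7a-5p median were left out, r was −0.16, 0.12 and 0.57. Both miR-191 and miR-19a thus had a weak relation without those heifers. Within SFH, r was 0.44 for miR-191, −0.06 for miR-19a and 0.84 for miR-30b-3p. Without the 2 most distant SFH heifers it was −0.94, −0.08 and 0.20.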
